A study of Rattus norvegicus with 30 samples.

Results

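The proteasome is the protease complex that degrades proteins tagged with ubiquitin. Its subunit genes were followed here in rat microglia after stroke. The genes were taken by symbol: every platform symbol that begins with Psma, Psmb, Psmc, Psmd, Psme or Psmf and a digit, without the interferon-inducible subunits Psmb8, Psmb9 and Psmb10. This gave 41 of the 14506 named genes, each read from its brightest probe set by the mean of the 30 arrays. Of these, 40 passed a filter on dim probe sets and were tested among 11675 genes. Psmb11, the catalytic subunit of the thymus, did not pass: its log2 signal lay between 3.51 and 4.06, at or below the 30th percentile of every array. Psmc3ip, a partner of a recombination factor, and Psme3ip1, a partner of Psme3, carry matching symbols and are no subunits of the particle. The inhibitor Psmf1 and the testis subunit Psma8 were not analysed here, and a probe set shared by Psma3 and Psma3l was left out.

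The samples were microglia, the resident macrophages of the brain, of male rats aged 3 or 12 months. The stroke groups had their middle cerebral artery blocked by a filament for 75 min, and microglia were profiled 3 or 14 days later from the injured (ipsilateral) hemisphere and from the opposite (contralateral) one. At each age there was also a sham group, for which the sources used here name no hemisphere. This made 10 groups of 3 arrays. The labels conflict on the strain: the sample characteristics name Wistar Kyoto and the protocols name spontaneously hypertensive rats. These are different strains, so the strain of the animals is not settled here. The sources used here do not say how the microglia were isolated. The ipsilateral and contralateral samples of 1 replicate number came from the same animal, 12 animals in all, whereas no label says whether each sham sample is its own animal, so p-values against sham measure only the spread between these samples. The study asked how microglial expression moved between day 3 and day 14 and whether the ages differed in it.

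In the proteasome, a 20S core of 2 outer rings of alpha and 2 inner rings of beta subunits holds the catalytic sites. A 19S particle caps the core: its base of ATPases unfolds substrates and opens the core, and its lid removes ubiquitin. The core can instead be capped by the activators PA28 alpha and beta (Psme1 and Psme2), which are inducible by interferon gamma, PA28 gamma (Psme3) or PA200 (Psme4). Proteasome genes are expressed in nearly every cell. In immune cells interferon also induces 3 alternative catalytic subunits, which replace the constitutive ones and alter the peptides offered to T cells.

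These 4 promoters are printed as examples. Psmb1, Psme1 and Psme2 were called higher in the ipsilateral hemisphere in all 4 comparisons. Psmb5 is a catalytic subunit chosen because its promoter held a match to a motif named below. The catalytic gene Psmb6, called in more comparisons, also held such a match and is not printed. Each run is the 250 bases before the gene's start in RefSeq's assembly GRCr8, at chr1:65134771-65135020, minus strand (Psmb1), chr15:33038721-33038970, plus strand (Psme1), chr15:33052752-33053001, minus strand (Psme2) and chr15:32047380-32047629, minus strand (Psmb5). Capitals mark matches to TGACNNNGC (the core of the antioxidant response element), the core of the interferon-stimulated response element (a repeat of GAAA with a gap) or TTCNNNGAA (the gamma-activated site), searched on both strands.
Psmb1: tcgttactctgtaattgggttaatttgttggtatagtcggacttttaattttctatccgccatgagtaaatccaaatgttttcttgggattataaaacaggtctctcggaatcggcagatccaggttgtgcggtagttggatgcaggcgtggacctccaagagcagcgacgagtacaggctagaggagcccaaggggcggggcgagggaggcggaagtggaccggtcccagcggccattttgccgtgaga
Psme1: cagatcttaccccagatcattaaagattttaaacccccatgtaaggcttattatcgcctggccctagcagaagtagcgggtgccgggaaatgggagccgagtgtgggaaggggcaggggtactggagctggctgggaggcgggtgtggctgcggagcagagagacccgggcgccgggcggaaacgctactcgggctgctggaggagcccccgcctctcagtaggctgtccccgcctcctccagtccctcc
Psme2: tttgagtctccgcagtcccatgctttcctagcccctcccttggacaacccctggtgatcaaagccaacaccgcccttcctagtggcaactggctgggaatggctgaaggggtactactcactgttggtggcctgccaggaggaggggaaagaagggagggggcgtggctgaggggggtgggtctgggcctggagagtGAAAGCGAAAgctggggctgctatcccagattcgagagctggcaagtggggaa
Psmb5: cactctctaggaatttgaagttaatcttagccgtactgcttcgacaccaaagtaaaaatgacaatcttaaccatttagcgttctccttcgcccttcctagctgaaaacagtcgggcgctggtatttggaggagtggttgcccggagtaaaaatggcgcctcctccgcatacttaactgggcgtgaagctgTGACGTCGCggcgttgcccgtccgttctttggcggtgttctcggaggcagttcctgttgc
In Psme2 the capitals lie 53 to 44 bases before the start, and in Psmb5 they lie 60 to 52 bases before it. Psmb1 and Psme1 held none of the 3 motifs in this window. Of the 41 genes, 35 had a promoter entry. TGACNNNGC was found in 6 of them (17.1%, against 10.1% of all 33469 promoters), the interferon-stimulated core in 4 (11.4% against 3.41%), TTCNNNGAA in 3 (8.57% against 7.67%) and CCAAT in 18 (51.4% against 34.0%). The interferon-stimulated core and TTCNNNGAA were both found in Psmd7. The median GC content was 56.8% in these promoters and 51.2% in all, and letters that match a motif are a description of the sequence.

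Values are log2 signals, and a change is a difference of group means of 3 arrays each, with limma's standard error (SE). A gene was called at a limma adjusted p under 0.05, adjusted over all 11675 genes of a comparison. The samples were strong in microglial markers: the mean over 9 tested genes, Cx3cr1 and P2ry12 among them, lay between 9.88 and 10.92 on every array. Arrays of 1 group correlated at 0.987 to 0.995 over probe sets. The arrays did not share 1 distribution: their standard deviations ran from 1.79 to 1.93 for 3-month stroke samples and from 1.94 to 2.05 for the rest. Proteasome genes are bright, with a median of 8.19 against 6.05 over all tested genes. In these bulk samples, fewer cells of a type and less RNA per cell cannot be told apart.

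Many proteasome genes were higher in microglia of the injured hemisphere than of the opposite one, most of them at 12 months on day 3 and fewest at 12 months on day 14. The called genes numbered 12 of 40 at 3 months on day 3, 18 on day 14, 32 at 12 months on day 3 and 4 on day 14, and none was called lower. Among all genes, 11.5%, 13.2%, 18.7% and 10.9% were called higher and 8.95%, 7.09%, 10% and 5.94% lower in these comparisons, so the count at 12 months on day 14 was near the background. The median change was 0.18, 0.26, 0.37 and 0.14 (log2), beside -0.01 over all genes in each. Within the 12 animals the picture was alike: 21 to 39 of the 40 genes were higher on the injured side of each animal, while 46.6% to 54.5% of all genes were. In all, 13 genes were higher on the injured side in 12 of 12 animals: Psma1, Psma2, Psma3l, Psma5, Psma7, Psmb1, Psmb2, Psmb4, Psmb6, Psmc1, Psmd3, Psme1 and Psme2. The share of all genes higher in 12 of 12 animals was not computed. The animal with 21 was animal 2 at 12 months on day 14, whose median difference was 0.012.

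**Figure D1:**
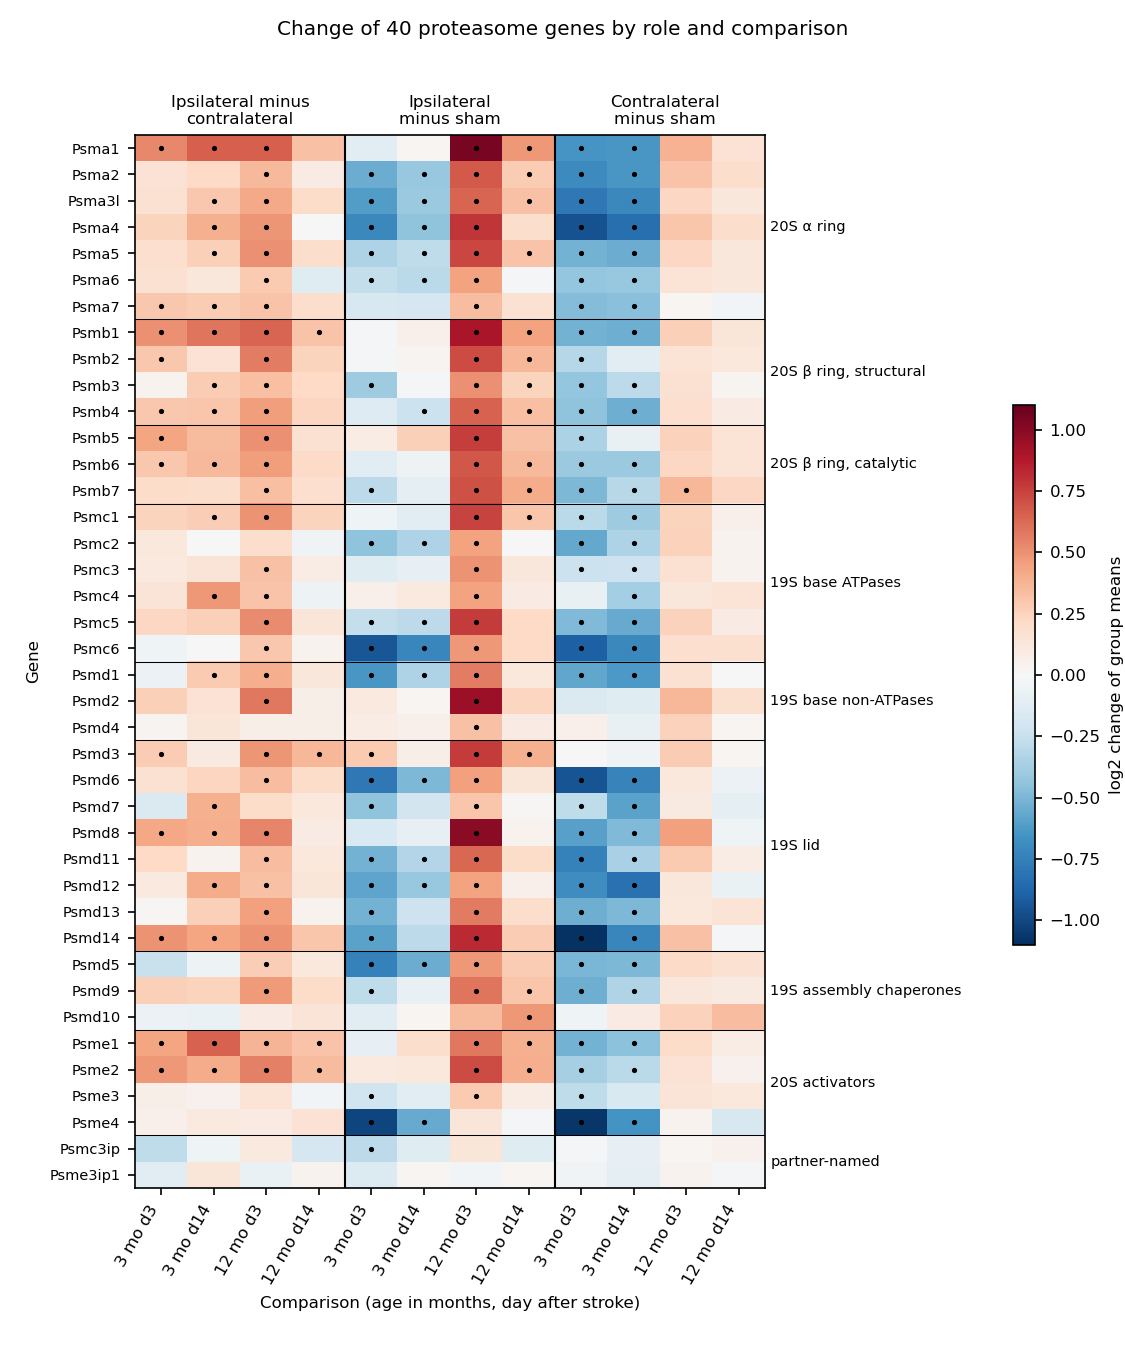
Log2 change of group means (colour) for the 40 tested proteasome genes (rows, grouped by role) in the 4 hemisphere comparisons and the 8 comparisons with sham (columns), with a dot where limma called the gene. The hemisphere columns are mostly red, the 3-month columns against sham mostly blue and the 12-month day 3 ipsilateral column against sham almost wholly red.

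**Figure D2:**
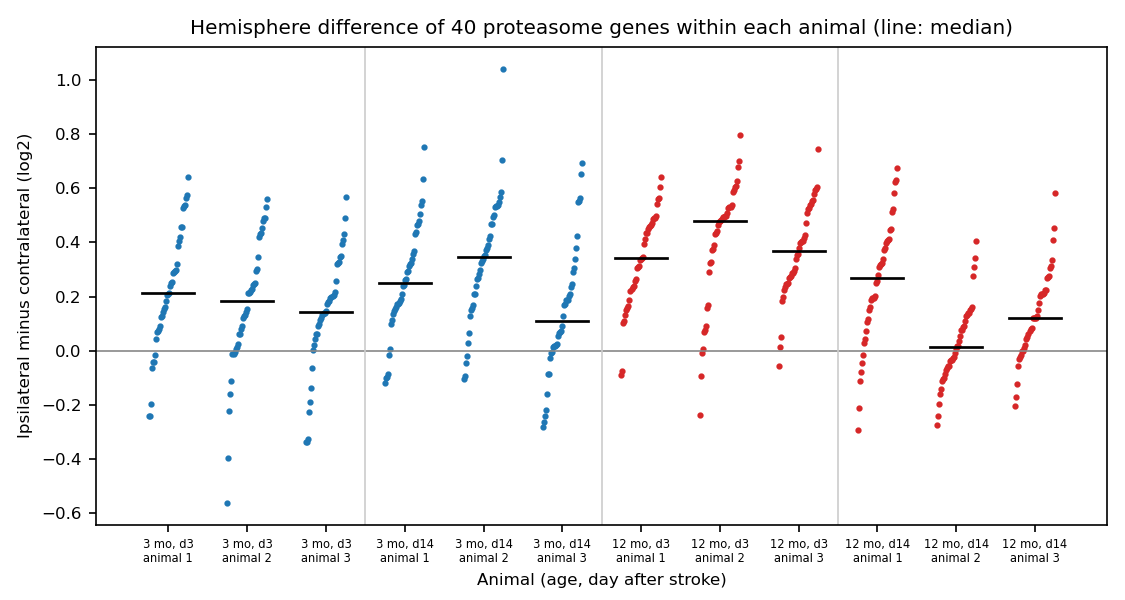
Ipsilateral minus contralateral log2 signal within each of the 12 animals (x axis), with 1 point for each of the 40 proteasome genes and a line at their median. The medians run from 0.012, in a 12-month animal at day 14, to 0.478, in a 12-month animal at day 3.

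Of 14 core genes, 7, 9, 14 and 1 were called higher across the same 4 comparisons, and of 17 genes of the 19S particle 3, 7, 14 and 1 were. These counts, and those by role below, stand beside 11.5%, 13.2%, 18.7% and 10.9% of all genes called higher. Both counts at 12 months on day 14, and the 3 of 17 at 3 months on day 3, were near or below that share. In the alpha ring, which gates entry to the core, 2, 5, 7 and 0 of 7 genes were called. Psma1 had the largest change of the 40 at 3 months on both days and at 12 months on day 3. On day 3 at 3 months its signal was 8.62, 8.30 and 8.40 in the contralateral hemisphere and 9.15, 8.78 and 8.97 in the ipsilateral one, against 9.12, 9.16 and 8.99 in sham. Each animal was higher on the injured side and the groups did not overlap (0.53 ± 0.12 SE, n = 3, adjusted p = 0.0015). On day 14 it was 8.53, 8.14 and 8.68 against 9.17, 9.18 and 8.98 (0.66 ± 0.12, adjusted p = 0.00013). At 12 months the same order held on day 3, with 9.50, 9.21 and 9.58 contralateral and 10.14, 10.01 and 10.11 ipsilateral (0.66 ± 0.12, adjusted p = 7.9e-05). On day 14 the difference of Psma1 at 12 months was 0.32 ± 0.12 and was not called (adjusted p = 0.062).

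Among the structural beta subunits, 3, 3, 4 and 1 of 4 genes were called. Psmb1 was the one called in all 4 comparisons. Its change was 0.50 ± 0.10 and 0.59 ± 0.10 at 3 months on days 3 and 14, and 0.64 ± 0.10 and 0.31 ± 0.10 at 12 months (adjusted p = 0.00024, 4.1e-05, 7.2e-06 and 0.024). On day 14 at 12 months, its smallest change, the arrays read 8.53, 8.83 and 8.78 contralateral and 9.11, 8.91 and 9.06 ipsilateral, without overlap. Psmb2 reached 0.56 ± 0.09 at 12 months on day 3 (adjusted p = 2.5e-05).

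Of the 3 catalytic subunits, 2, 1, 3 and 0 were called. Psmb5, which cuts after hydrophobic residues, changed by 0.43 ± 0.13 and 0.50 ± 0.13 on day 3 at 3 and 12 months (adjusted p = 0.014 and 0.0032). On day 14 its differences were 0.35 ± 0.13 and 0.17 ± 0.13 and were not called (adjusted p = 0.054 and 0.43). Psmb6, the caspase-like subunit, changed by 0.29 ± 0.09, 0.35 ± 0.09 and 0.46 ± 0.09 in the first 3 comparisons (adjusted p = 0.018, 0.0043 and 0.00017). On day 14 at 12 months its difference was 0.21 ± 0.09 (adjusted p = 0.11). Psmb7, the trypsin-like subunit, was called at 12 months on day 3 (0.33 ± 0.09, adjusted p = 0.0074), with differences of 0.20, 0.20 and 0.18 elsewhere. On the deposited values the 3 constitutive catalytic genes thus stood higher on the injured side in every mean.

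The interferon-inducible catalytic subunits that replace them moved the same way. Of Psmb8, Psmb9 and Psmb10, 1, 3, 3 and 2 were called. Psmb9 had changes of 0.72, 0.54, 0.66 and 0.43. Psmb8 was not called at 3 months on day 3 (0.26) and changed by 0.38, 0.62 and 0.36 in the others. Psmb10 differed by 0.28 and 0.20 in the 2 comparisons without a call and changed by 0.35 in both of the others.

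The activators of the core split. Psme1 and Psme2, which pair in the PA28 ring, were called in all 4 comparisons. Psme1 read 9.07, 8.89 and 9.26 contralateral and 9.61, 9.38 and 9.52 ipsilateral at 3 months on day 3, and 9.12, 9.20 and 9.11 against 9.87, 9.74 and 9.77 on day 14. Its changes were 0.43 ± 0.09, 0.65 ± 0.09, 0.38 ± 0.09 and 0.31 ± 0.09 in the order given (adjusted p = 0.00080, 4.7e-06, 0.0022 and 0.016). Those of Psme2 were 0.47, 0.41, 0.55 and 0.35, each with an SE of 0.09 (adjusted p = 0.00017, 0.00097, 1.4e-05 and 0.0053). At 12 months on day 14 Psme2 read 9.38, 9.41 and 9.41 contralateral and 9.78, 9.72 and 9.74 ipsilateral, and the groups lay far apart against their spread. Psme3, the nuclear activator, differed by 0.06, 0.05, 0.15 and -0.03, and Psme4 by 0.06, 0.11, 0.09 and 0.16, with no call (adjusted p from 0.15 to 0.85).

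In the 19S base, 0, 2, 5 and 0 of the 6 ATPase genes and 0, 1, 2 and 0 of the 3 other base genes were called. Psmc4 changed by 0.48 ± 0.10 at 3 months on day 14 (adjusted p = 0.00043), and the scaffold Psmd2 by 0.58 ± 0.11 at 12 months on day 3 (adjusted p = 0.00020). In the lid, 3, 4, 7 and 1 of 8 genes were called. Psmd14, the lid's deubiquitinase, changed by 0.50 ± 0.14 and 0.43 ± 0.14 at 3 months (adjusted p = 0.0084 and 0.023). Psmd3 was the lid gene called at 12 months on day 14 (0.37 ± 0.10, adjusted p = 0.0085). Of the assembly chaperones Psmd5, Psmd9 and Psmd10, 2 were called, both at 12 months on day 3. In all, 7 genes were called in no hemisphere comparison: Psmc2, Psmc3ip, Psmd4, Psmd10, Psme3, Psme3ip1 and Psme4.

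The hemisphere counts moved with how arrays were scaled. The array standard deviation was 1.84 to 1.87 ipsilaterally and 1.79 to 1.87 contralaterally at 3 months on day 3, and 2.04 to 2.05 and 1.96 to 2.01 at 12 months on day 3. With the arrays quantile-normalized again, 11, 11, 23 and 5 genes were called higher, and Psmc3ip (-0.33) and Psmd5 (-0.29) were called lower at 3 months on day 3. The background of higher calls was then 12.7%, 12.4%, 14.8% and 9.54%. With every array scaled to 1 standard deviation, 12, 15, 25 and 4 were called higher and none lower (11.8%, 13.7%, 16.5% and 10.7% of all genes higher). Psmb1, Psme1 and Psme2 were called in all 4 comparisons under both scalings. Single libraries also mattered: on day 3 at 3 months the count was 7 without contralateral replicate 2 and 4 without ipsilateral replicate 1. On day 14 at 3 months it was 11 without contralateral replicate 2, 10 without ipsilateral replicate 2 and 7 in a fit to the compared arrays alone, as on day 3. At 12 months on day 14 it was 2 without contralateral replicate 1, 1 without ipsilateral replicate 1 and 7 with the animal as a random block.

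Some markers of other cells and of division differed between the hemispheres too. Among all genes, 11.5%, 13.2%, 18.7% and 10.9% were called higher across the 4 comparisons. The shares called lower were 8.95%, 7.09%, 10% and 5.94%. Of 8 tested genes of infiltrating monocytes and macrophages, 8, 4, 7 and 4 were called higher across the 4 comparisons, and 1 was called lower on day 14 at each age. The mean over the list's 9 named genes lay at 6.42 to 7.84 ipsilateral and 5.34 to 5.44 contralateral at 3 months on day 3, and at 6.99 to 7.25 and 5.39 to 5.62 at 12 months. Of 6 proliferation genes, 6, 0, 6 and 2 were called higher. Their mean was 7.89 to 8.07 ipsilateral, 5.51 to 6.06 contralateral and 4.34 to 4.46 in sham at 12 months on day 3. Of 8 neutrophil genes, 4, 1, 1 and 0 were called higher and 0, 3, 0 and 1 lower, and their mean reached 6.44 to 7.45 ipsilateral against 5.58 to 6.21 contralateral and 5.80 to 6.80 in sham at 3 months on day 3. Of 9 microglial genes, 7 were called lower in each comparison, and 1, 1, 0 and 1 were called higher. Of 6 tested T and NK cell genes, 1 was called higher in each, near the share of all genes. The neutrophil counts of 1 higher gene were also near that share. Cd3g lay at or below the 30th percentile of every array. Of 4 tested genes each of neurons, astrocytes and oligodendrocytes, at most 1 was called, always lower, and of 4 endothelial genes 2 were called higher at 12 months on day 3 and 2, 1, 1 and 2 lower across the comparisons. The part of these cells in the proteasome differences was not tested.

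Compared with sham, the 2 ages went opposite ways on the deposited values. All stroke groups of 1 age share the same 3 sham arrays. At 12 months on day 3, 36 of 40 proteasome genes were higher ipsilaterally than in sham and none was lower (median 0.59; 22.7% of all genes higher, 14.3% lower). On day 14, 16 were higher and none lower (median 0.23; 11.9% and 8.09%). At 3 months, 1 gene was higher and 22 lower on day 3 (median -0.26; 20.9% and 35.9%), and 0 were higher and 15 lower on day 14 (median -0.13; 11% and 23.4%). At 12 months on day 3, 6 of 6 proliferation genes (median 3.57) and 7 of 8 monocyte and macrophage genes (median 1.95) were also higher ipsilaterally than in sham. Of 9 microglial genes, 7 were lower and 1 was higher. At 3 months on day 3 the same lists had 6 of 6 higher (median 1.52), 6 of 8 higher (median 2.22), and 8 of 9 lower with 1 higher. Their part in the proteasome differences was not tested. The 3-month count on day 14 was 9 without ipsilateral replicate 3, and the 12-month count on day 14 was 10 without sham replicate 2.

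At 12 months the largest rises on day 3 were in Psma1, Psmd8 of the lid, Psmd2, Psmb1 and Psmd14. Psma1 read 8.96, 9.07 and 9.11 in sham, so the ipsilateral arrays given above stood 2.06-fold higher (1.04 ± 0.12, adjusted p = 3.4e-08). Psmd8 read 7.31, 7.30 and 7.24 in sham and 8.25, 8.14 and 8.44 ipsilaterally (0.99 ± 0.14, adjusted p = 1.4e-06). The changes of the other 3 were 0.94 ± 0.11, 0.90 ± 0.10 and 0.82 ± 0.14. All 14 core genes and all 17 genes of the 19S particle were called on this day. The 4 genes without a call were Psmd10 (0.34), Psme4 (0.13), Psmc3ip (0.13) and Psme3ip1 (-0.03). On day 14, 10 of the 14 core genes and 2 of the 17 genes of the 19S particle were called, a difference that was not tested. Psma1 (0.48), Psmd10 (0.48), Psmb1 (0.45), Psmb7 (0.41) and Psme2 (0.40) changed most.

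In the contralateral hemisphere of 12-month rats, few differences from sham were called. On day 3, Psmb7 was the single call (0.36 ± 0.09, adjusted p = 0.048; 1.16% of all genes higher, 0.128% lower), although 40 of 40 means lay above sham (median 0.21, highest 0.45) and 21 genes had an unadjusted p under 0.05. The median over all genes was 0.004 in this comparison. Shares of all genes above sham or at that unadjusted p were not computed, and the 40 means rest on the same arrays. With array weights limma called 10 proteasome genes in this comparison. In the same comparison 6 of 6 proliferation genes were higher (median 1.33), and their part in these differences was not tested. The arrays of Psmb7 read 9.64, 9.51 and 9.59 against 9.22, 9.16 and 9.28 in sham, without overlap. The call was lost under both other scalings (adjusted p = 0.058 and 0.095). On day 14 limma called 0 genes (0.00857% of all genes called), 3 had an unadjusted p under 0.05, and the median was 0.09.

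In the contralateral hemisphere of 3-month rats, 33 genes were lower than in sham on day 3 and 31 on day 14, with none higher (medians -0.49 and -0.43; 37.2% and 28.4% of all genes lower, 14.4% and 10.4% higher). All 7 tested genes of the alpha ring, with Psma3l and without Psma3, were called lower on both days. Psme4, which caps the core without a 19S particle, fell in both hemispheres. Its signal was 7.97, 7.96 and 7.89 in sham. On day 3 it was 6.83, 6.82 and 6.97 contralaterally and 6.98, 7.04 and 6.78 ipsilaterally, changes of -1.07 ± 0.09 and -1.01 ± 0.09 (adjusted p = 5.3e-10 and 6e-11). No stroke array overlapped sham. On day 14 it stood at 7.28, 7.37 and 7.21 and at 7.49, 7.35 and 7.34 (-0.66 and -0.55). At 12 months Psme4 read 7.42 to 7.95 on every array, sham included, and was not called against sham (adjusted p from 0.23 to 0.94).

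Psmd14 fell by 1.08 contralaterally on day 3 at 3 months, from 7.96, 7.87 and 7.98 in sham to 6.99, 6.69 and 6.87 (± 0.14, adjusted p = 2.2e-07). Psma4 fell by 0.96 and 0.83 on days 3 and 14, the lid gene Psmd6 by 0.95 and 0.73, the ATPase Psmc6 by 0.89 and 0.71 and the lid gene Psmd12 by 0.68 and 0.82. Ipsilaterally the largest falls on day 3 were in Psme4, Psmc6 (-0.94), Psmd6 (-0.78), Psmd5 (-0.74) and Psma4 (-0.71), and the same 5 led on day 14 with -0.55, -0.72, -0.49, -0.55 and -0.44. Psmd3 was the gene called higher ipsilaterally on day 3 (0.29 ± 0.10, adjusted p = 0.015).

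These 3-month differences from sham depended on the scaling. The 3-month stroke arrays were the narrow ones, and the median proteasome signal of an array ran from 7.65 to 8.08 on them and from 8.11 to 8.71 on the others. At 3 months stroke and sham also differ in a number within the sample codes, which the sources used here do not explain, and the 2 cannot be told apart. With the arrays quantile-normalized again, the contralateral counts were 4 higher and 15 lower on day 3 and 0 higher and 17 lower on day 14 (15.7% and 23.2%, then 8.73% and 14.1% of all genes). The ipsilateral counts were 12 higher and 8 lower on day 3 and 6 and 6 on day 14 (23.4% and 28.1%, then 13.5% and 16.5% of all genes), so the ipsilateral direction of the group as a whole was not kept. With arrays scaled to 1 standard deviation, the contralateral counts were 0 higher and 21 lower on day 3 and 0 and 25 on day 14 (11.5% and 33.6%, then 5.96% and 24% of all genes). The ipsilateral counts were then 2 and 16 on day 3 and 2 and 11 on day 14 (17.8% and 35.2%, then 11% and 20.9%), so the share of proteasome genes called lower ipsilaterally was near that of all genes on day 3. Psme4, Psmc6, Psma4 and Psmd5 kept their calls against sham in both hemispheres and on both days under both other scalings; quantile-normalized again, Psme4 stood at -0.74 contralaterally and -0.68 ipsilaterally on day 3. At 12 months on day 3, 32 and 34 genes were higher than sham ipsilaterally under the 2 scalings (18.7% and 20.5% of all genes higher), and on day 14, 12 and 13 (10.1% and 11.1%).

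**Figure D3:**
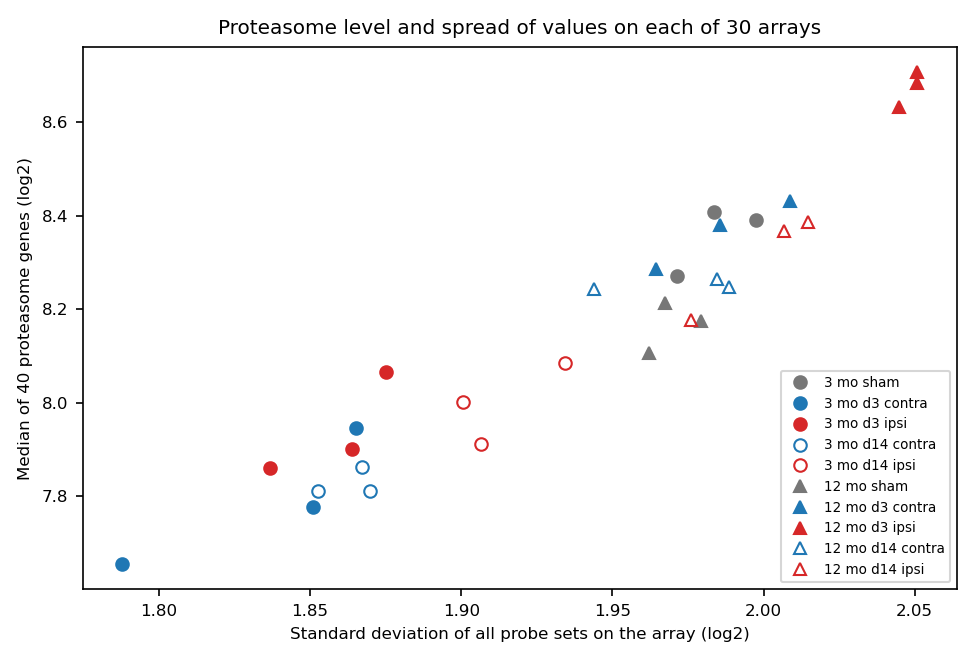
Median log2 signal of the 40 proteasome genes (y axis) against the standard deviation over all probe sets (x axis) on each of the 30 arrays, with colour for sham, contralateral or ipsilateral, shape for age and filling for day. The 12 stroke arrays of 3-month rats lie at the lower left, below a standard deviation of 1.94, and the 3 ipsilateral arrays of 12-month rats at day 3 at the upper right.

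**Figure D4:**
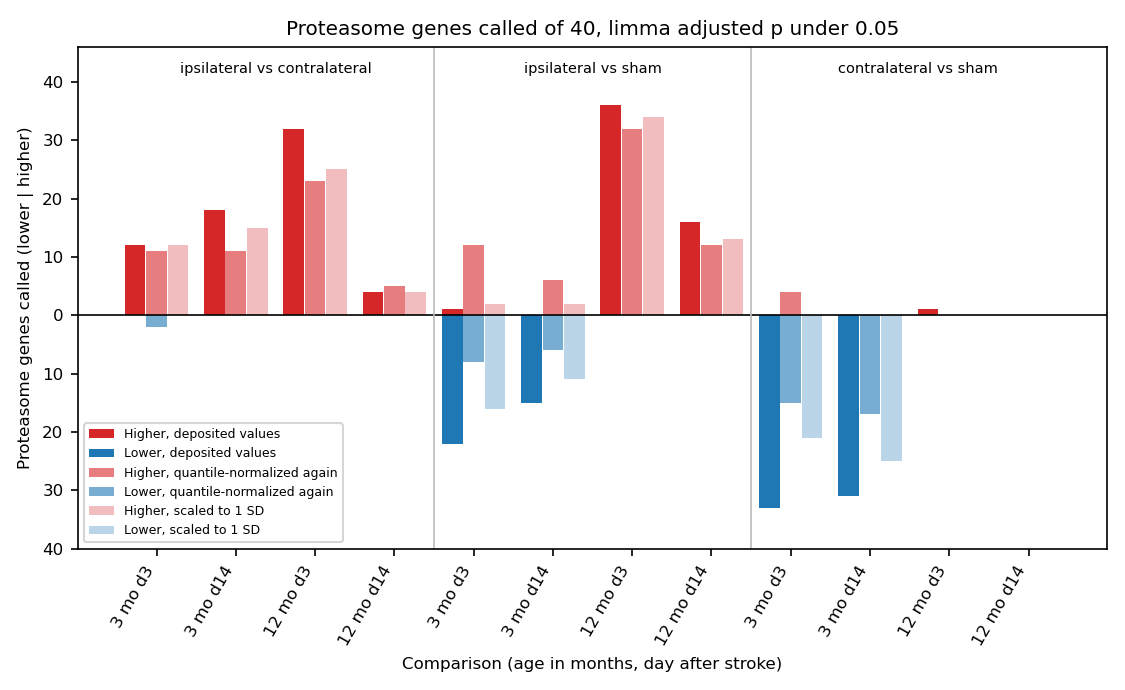
Number of the 40 proteasome genes called higher (bars up) or lower (bars down) in 12 comparisons, on the deposited values, after repeated quantile normalization and with arrays scaled to 1 standard deviation. The 12-month ipsilateral bars against sham point up under all 3 scalings, as do the hemisphere bars apart from 2 genes lower at 3 months on day 3 after quantile normalization, while at 3 months the ipsilateral bars against sham turn from 1 higher and 22 lower to 12 higher and 8 lower on day 3.

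Between day 3 and day 14 the ipsilateral level fell at 12 months. Of 40 genes, 28 were lower on day 14 and none was higher (median -0.35; 14.1% of all genes lower, 6.53% higher), and 22 were lower under each of the 2 other scalings (11.2% and 11.7%). In the same comparison 6 of 6 proliferation genes (median -3.28), 6 of 8 monocyte and macrophage genes (median -1.38) and 2 of 8 neutrophil genes (median -0.52) were lower, and their part in the fall was not tested. Psmd8 fell by 0.96 ± 0.14, from the values given above to 7.39, 7.27 and 7.29, close to its sham arrays (adjusted p = 7.2e-06). Psmd2 fell by 0.70, Psma4 by 0.60, Psma1 by 0.56 and the ATPase Psmc5 by 0.55. In the contralateral hemisphere limma called 0 genes (0.137% of all genes higher, 0.925% lower), with 7 at an unadjusted p under 0.05. At 3 months the code number differs between the days and cannot be told apart from the day. There, 6 genes were higher on day 14 ipsilaterally and none lower (22% and 7.51% of all genes): Psme4 (0.46), Psmb3 (0.38), Psmd1 (0.30), Psmd13 (0.29), Psme1 (0.29) and Psma4 (0.27). Contralaterally 2 were higher and none lower (8.31% and 1.84% of all genes), Psme4 (0.41) and Psmd11 (0.38). In both hemispheres the count of higher proteasome genes at 3 months was below the share of all genes. Quantile-normalized again, the ipsilateral split was 2 higher and 2 lower and the contralateral one 1 and 2 (15.3% and 10.3%, then 5.52% and 3.58% of all genes).

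The hemisphere difference itself seldom differed between days or ages by limma. Between days, Psmd7 of the lid was called at 3 months (0.55 ± 0.15, adjusted p = 0.038), beside 2.57% of all genes higher and 1.24% lower. Psmd7 differed by -0.16 on day 3 and changed by 0.39 on day 14. Its animals differed by -0.04, -0.11 and -0.34 on day 3. On day 14 they differed by -0.10, 0.57 and 0.69, so 1 animal went the other way. Psma4 was called at 12 months (-0.49 ± 0.14, adjusted p = 0.032; 1.75% and 3.59%), with 0.48 on day 3 and -0.01 on day 14. Psma4 read 8.82, 8.57 and 8.79 contralaterally and 9.28, 9.05 and 9.30 ipsilaterally on day 3, and 8.64, 8.55 and 8.68 against 8.75, 8.45 and 8.64 on day 14. Neither call held in the fit to the compared arrays alone. Between ages, limma called 0 genes on day 3 (1.42% of all genes higher, 0.154% lower). There, 39 of 40 differences were larger at 12 months (median 0.17, beside 0.03 over all genes), and 8 had an unadjusted p under 0.05. Such counts were not computed over all genes, and the 40 differences rest on the same arrays. On day 14 limma also called 0 (0% and 0.00857% of all genes), with 3 at an unadjusted p under 0.05.

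The age difference of stroke minus sham was tested in 4 contrasts chosen after the data were seen. On day 3, 37 genes ipsilaterally and 34 contralaterally stood higher in 12-month than in 3-month rats, relative to their sham, and none lower (medians 0.88 and 0.66; 37.5% and 30.5% of all genes higher, 14% and 8.36% lower). On day 14 it was 17 and 27 (medians 0.40 and 0.51; 10.5% and 16.9% higher, 1.9% and 3.68% lower). Quantile-normalized again, the counts were 25, 17, 4 and 8, and with arrays scaled to 1 standard deviation 33, 26, 7 and 18, in the same order. The background of higher calls was then 20.2%, 14.3%, 2.58% and 5.23%, and 32.4%, 24.5%, 5.84% and 10.7%. Age and the code number cannot be told apart here. Between the sham groups alone, Psmb5 was higher at 12 months (0.40 ± 0.13, adjusted p = 0.037) and Psmc6 (-0.44), Psma4 (-0.39), Psma2 (-0.37), Psma3l (-0.33) and Psmd5 (-0.30) were lower (7.47% and 5.52% of all genes); the count was 2 without replicate 1 of the 3-month sham and 2 without replicate 2 of the 12-month sham.

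**Figure D5:**
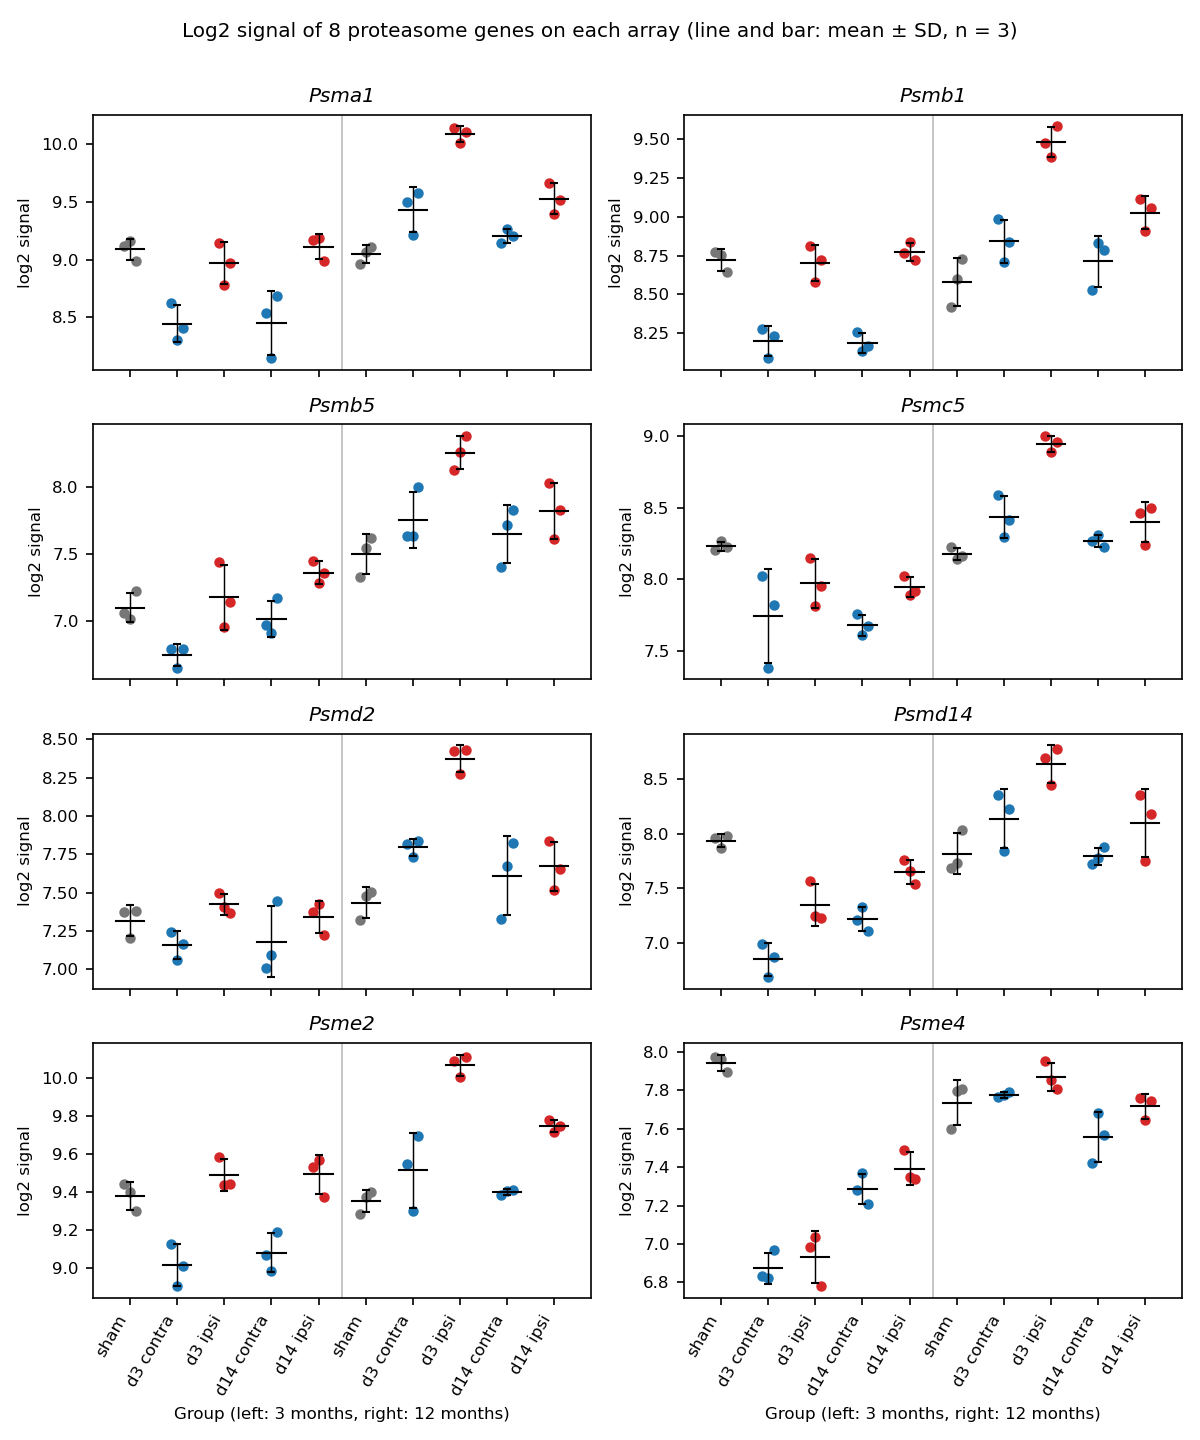
Log2 signal of 8 proteasome genes (panels) on each array, by group (x axis; grey sham, blue contralateral, red ipsilateral), with a line at the mean and bars of 1 SD (n = 3). Psma1 stands above its contralateral group in each ipsilateral group, and Psme4 is lowest on the 3-month stroke arrays of day 3, at 6.78 to 7.04.

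Over the 21 comparisons, Psma4 was called most often, in 11, and Psme3ip1 in none. Calls in both directions were made for 36 of the 40 genes, the exceptions being Psmc3ip, Psmd4, Psmd10 and Psme3ip1. The comparisons share arrays, and the share of all genes called in both directions was not computed.

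Genes that serve the proteasome from outside the symbol rule were read from lists, whose counts stand beside 11.5%, 13.2%, 18.7% and 10.9% of all genes called higher and 8.95%, 7.09%, 10% and 5.94% lower in the 4 hemisphere comparisons. Of 7 tested genes of assembly and of further subunits, 4, 3, 5 and 4 were called higher in the 4 hemisphere comparisons and none lower. Pomp, the chaperone that matures the core, changed by 0.88, 0.65, 0.82 and 0.49. Sem1, a small lid subunit, changed by 0.81, 0.74, 0.77 and 0.55 and the core chaperone gene Psmg4 by 0.66, 0.59, 0.79 and 0.48, while Psmg1, its fellow chaperone, was called in 3 (0.47, 0.82 and 0.47; 0.25 at 3 months on day 14). Adrm1, a ubiquitin receptor, differed by -0.11 to 0.10 without a call. At 12 months on day 3, Pomp stood 1.15 and Sem1 1.04 above sham ipsilaterally.

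Of 8 genes of transcriptional control, 1, 3, 4 and 3 were called higher and 1, 0, 0 and 0 lower, so that the count at 3 months on day 3 was near the share of all genes. Stat3, a cytokine-activated factor, changed by 0.57, 0.62, 0.57 and 0.58. Nfe2l2, the factor of the antioxidant response, changed by 0.79, 0.36 and 0.64 in the last 3 comparisons and differed by 0.24 on day 3 at 3 months. Nfe2l1, which drives proteasome genes when the proteasome is inhibited, was called at 12 months on day 14 (0.34), and Nfya was the gene called lower (-0.29). Ngly1, which processes Nfe2l1, changed by 0.36 on day 14 at 3 months and on day 3 at 12 months, when the CCAAT-binding gene Nfyb also changed by 0.36.

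Of 16 genes of ubiquitin supply, shuttles and proteasomal deubiquitinases, 2, 4, 5 and 1 were called higher and 3, 1, 3 and 1 lower. The higher counts at 3 months on day 3 and at 12 months on day 14 were near or below the share of all genes. Uchl5, a deubiquitinase of the 19S particle, changed by 0.47, 0.40 and 0.81 in the first 3 comparisons. The ubiquitin-activating enzyme gene Uba1 changed by 0.39 and 0.53 on day 3 at the 2 ages, and Uba6, the other activating enzyme, by 0.36 at 3 months on day 14. Zfand2a, a stress-induced partner of the proteasome, was lower in all 4 (-0.66, -0.46, -0.84 and -0.49). Sqstm1, an autophagy receptor, was higher on day 14 at both ages (0.31 and 0.32).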

How the data were processed

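The authors deposited log2 values made with RMA in Affymetrix Expression Console, per the submitters' processing notes, from Affymetrix Rat Gene 1.0 ST arrays hybridised with amplified RNA. Per the labels, 50 ng of RNA with an integrity number above 7 was used for each array. RMA quantile-normalizes arrays, but the deposited columns did not share 1 distribution, so repeated quantile normalization and scaling to 1 standard deviation were run as alternatives. The deposited values were otherwise used as they stand.

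Of 29214 probe sets, 15310 had 1 gene symbol in the platform annotation, 323 had several and 13581 were not listed. Each gene was read from its probe set with the highest mean, and 7 proteasome genes had more than 1. Genes above an array's 30th percentile on at least 3 arrays were tested. A limma 3.58.1 model (R 4.3.3) of 10 group means over 30 arrays gave 21 comparisons, with Benjamini-Hochberg adjustment over 11675 genes; the number of arrays limits the precision. The procedure was tested on simulated data. Ipsilateral and contralateral samples of 1 animal are paired by the sample codes. The 12 pairs' deviations correlated at -0.079 to 0.211 (consensus 0.072), and blocking on the animal was tried as an alternative. Other alternatives changed the filter, the probe set, the scaling, the arrays fitted, array weights and the intensity trend, and left out each array.

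Named genes were the 5 called with the largest change in each comparison, the catalytic subunits and activators, and in each hemisphere comparison the 3 called genes of each pathway list with the largest change. Exceptions to a count, the most and least often called genes and genes called in opposite directions were named too; other genes are examples chosen after their values were seen. The members and lists were chosen with earlier results of these data known. Promoters came from RefSeq (GRCr8).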

Additional observations from a re-analysis of the deposited data

Results flagged for a closer look

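In 2 genes the difference between hemispheres itself differed between days by limma: Psmd7 at 3 months (0.55, adjusted p = 0.038) and Psma4 at 12 months (-0.49, adjusted p = 0.032). Each was 1 of 40 genes, near or below the share of all genes (2.57% higher at 3 months, 3.59% lower at 12 months). Neither call held in the fit to the compared arrays alone. Stroke minus sham differed between the ages in 37 proteasome genes ipsilaterally and 34 contralaterally on day 3, and in 17 and 27 on day 14, all higher at 12 months, beside 37.5%, 30.5%, 10.5% and 16.9% of all genes called higher. Quantile-normalized again, these counts were 25, 17, 4 and 8, and age and the number in the sample codes cannot be told apart.

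Other genes had all 3 animals of 1 group moving one way and all 3 of the other the opposite way, and limma did not call the difference. Between days these were Psmd1 at 3 months (0.36), and at 12 months Psma6 (-0.43), Psmc4 (-0.37) and Psme3ip1 (0.11), with adjusted p of 0.11, 0.086, 0.12 and 0.82. Between ages they were Psmd1 (0.47), Psmd5 (0.51) and Psmd7 (0.37) on day 3, and Psmc4 (-0.53) on day 14. The share of all genes with such opposite signs was not computed, so the list does not show that proteasome genes stand out.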

How the results depend on the processing

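Among 91 results on named genes, 1495 recomputed values kept their side of the threshold, 94 lost the call and 8 gained one. Of the values whose call changed, 0 reversed direction. For results without a call in either fit, direction was not compared. The counts of called proteasome genes that moved by over 1.5 times follow; unless a value or the setting's construction shows it, the cause was not tested. For contralateral minus sham at 12 months on day 3 the count was 0 without the filter, quantile-normalized again, centred on the median or scaled to 1 standard deviation, 2 with the compared arrays alone, 3 with arrays of 1 age and 10 with array weights. Quantile-normalized again, it was 11 between hemispheres at 3 months on day 14, 19 and 17 contralaterally against sham at 3 months, and 17, 4 and 8 in the age contrasts of stroke minus sham (contralateral day 3, ipsilateral day 14, contralateral day 14). Scaled to 1 standard deviation, it was 21 contralaterally against sham at 3 months on day 3, 4 between days contralaterally at 3 months and 7 in the ipsilateral age contrast of day 14. With the compared arrays alone, it was 7 and 7 between hemispheres at 3 months, and between days at 3 months 2 ipsilaterally and 0 contralaterally. With arrays of 1 age, it was 8 between hemispheres at 12 months on day 14, and 1 and 1 between days contralaterally at 3 and 12 months. With array weights, these 3 counts were 8, 1 and 1, and 10 between shams. The day difference of the hemisphere effect at 12 months had 2 calls under the stricter filter, the mean of probe sets, arrays of 1 age and both replicate blocks, 3 with array weights, and 0 scaled to 1 standard deviation or with the compared arrays alone. That at 3 months had 0 with the compared arrays alone, arrays of 1 age and the fixed replicate block. The age difference of the hemisphere effect on day 3 had 1 under the stricter filter or the intensity trend, 2 centred on the median or with the random replicate block, and 3 with array weights. The random replicate block also gave 7 between hemispheres at 12 months on day 14; the blocks moved no other count by over 1.5 times.

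Leaving out 1 array, the hemisphere counts ran from 4 to 15 and 10 to 18 at 3 months on days 3 and 14, and from 24 to 32 and 1 to 6 at 12 months. Ipsilaterally against sham they ran from 17 to 23, 9 to 15, 34 to 37 and 10 to 16 in the same order, and contralaterally from 28 to 33, 26 to 31, 0 to 2 and 0 to 0. Between days they ran from 3 to 10 and 21 to 28 ipsilaterally at 3 and 12 months, and from 1 to 3 and 0 to 0 contralaterally. Between shams they ran from 2 to 6, for the day difference of the hemisphere effect from 0 to 1 and 0 to 2, and for its age difference from 0 to 3 and 0 to 0. For the age contrasts of stroke minus sham they ran from 35 to 37 and 10 to 20 ipsilaterally on days 3 and 14, and from 32 to 34 and 23 to 27 contralaterally. The 10 ipsilaterally on day 14 came without 3-month ipsilateral replicate 3, and without 12-month sham replicate 2 or 12-month ipsilateral replicate 1 it was 11. Between days ipsilaterally at 3 months, the 10 came without day 3 replicate 1 and the 3 without day 3 replicate 2 or day 14 replicate 1.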
